A study of Mus musculus with 6 samples.

Results

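The cells described here are phagocytes that were recovered inside a neutrophil sort of mouse brain tumors, set beside the phagocytes of a CD45+ sort of the same tumor model. A cell was counted as a phagocyte when it held 200 genes or more with a mitochondrial share of UMIs of up to 10%, when S100a8 and S100a9 together gave under 0.5% of its UMIs, and when C1qa, C1qb, C1qc and Apoe together gave at least 0.3%. The cells were thus chosen by the measured shares of these 6 genes. They were 543 of 10722 kept cells of the 2 sorted tumor libraries and 10443 of 18066 kept cells of the 2 CD45+ libraries, 10986 phagocytes in all among the 37213 kept cells of the series. Values of the 6 genes are given below as a description and were left out of every test.

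All cells came from the SB28 mouse model of brain tumor, 18 days after the injection of 10000 SB28 tumor cells. SB28 is a mouse glioma cell line that is implanted into syngeneic mice; strain, sex and age are not given in the sources used here. The sorted groups were neutrophils taken by flow cytometry as CD45+ CD11b+ cells with high LY6G and low or no LY6C, from tumor or from blood, and the third group was CD45+ cells of the tumor. All groups came from tumor-bearing mice, with no tumor-free or treated group, and tumors were taken after perfusion with saline. Each group had 2 droplet-based 3′ single-cell RNA libraries with 20000 cells loaded per lane. The libraries are numbered 1 and 2, and nothing states that the numbers are separate mice, so each p-value below measures the spread between these libraries, which may be technical.

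C1q is the recognition part of the classical complement pathway, and in the brain it is made mostly by microglia and macrophages, as is much of the lipid carrier apolipoprotein E of myeloid cells. Microglia are the resident macrophages of the brain tissue and keep an identity program that includes Sall1, P2ry12 and Tmem119. Border macrophages lie at the meninges and vessels, and tumors of the brain also draw in macrophages that arise from blood monocytes, which first carry Ccr2 and Ly6c2. LY6G, the antigen of the sort, is a surface protein of neutrophils and is not a marker of any of these macrophages.

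The phagocytes of the CD45+ libraries held 57114563 and 90714808 UMIs, and those of the sorted libraries 3509658 and 4227073. Median UMIs per phagocyte were 9021 and 14449 in the CD45+ libraries and 13631 and 11258 in the sorted libraries. CD45+ library 1 and sorted library 2 shared 162 cell barcodes, against 3 to 35 for each of the other library pairs. Of the phagocytes of sorted library 2, 79 (25.6%) carried a shared barcode, as did 88 (1.67%) of those of CD45+ library 1, where they held 0.325% of the phagocytes' UMIs. The copy in the sorted library was deeper, with a median ratio of 41.4, and the lower and upper quartiles of the 162 ratios were 38.9 and 43.6. These cells had a median of 28010 UMIs in sorted library 2, where the remaining phagocytes had 4655. The results below are also given without the shared barcodes in both libraries, which takes these deep cells out of the sort.

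The label was checked against markers that the rule did not use. Csf1r, the receptor for the growth factor that macrophages depend on, reached 712 and 796 CPM in the sorted and 402 and 387 in the CD45+ phagocytes, and Adgre1, which encodes F4/80, reached 175 and 130.3 CPM in the sorted and 126 and 118 in the CD45+ phagocytes. The 10 macrophage genes of the marker list summed to between 9475 and 14972 CPM over the 4 libraries, mostly from the myeloid lysozyme gene Lyz2. Ly6g, the gene of the sorted antigen, had 3 UMIs in all phagocytes of the sorted libraries together and 2 in those of the CD45+ libraries, and Ly6c1 had none in the sorted ones. Ptprc, which encodes CD45, stood at 529.5 and 463 CPM in the sorted and 547 and 459.7 in the CD45+ phagocytes, and Itgam, which encodes CD11b, at 569.8 and 643 CPM in the sorted and 524 and 657 in the CD45+ phagocytes; the groups overlapped for both. More UMIs of the neutrophil list than of the macrophage list were held by 40 of 234 (17.1%) and 30 of 309 (9.71%) phagocytes of the sorted libraries and by 2.32% and 1.93% of those of the CD45+ libraries. By this count the name phagocyte held for most cells in each library, and results without those cells are given where they differ.

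Phagocytes were a small part of the neutrophil sort and the largest part of the CD45+ sort. They made up 5.65% (95% exact binomial interval 4.97 to 6.40) and 4.69% (4.20 to 5.23) of the kept cells of the sorted tumor libraries, with a mean of 5.17% ± 0.677 (SD, n = 2). In the CD45+ libraries they made up 56.3% (55.3 to 57.3) and 59.4% (58.4 to 60.5), with a mean of 57.9% ± 2.21 (SD, n = 2). In the blood sort 6 of 3115 and 5 of 5310 cells met the rule. These intervals cover counting error only. The median share of UMIs from the C1q genes and Apoe was 2.42% and 2.69% per sorted phagocyte and 1.44% and 1.67% per CD45+ phagocyte, as a description of what the rule chose. Cells just outside the limit of the C1q and Apoe share numbered 15 and 16 in the sorted libraries, against 9 and 14 just inside it. Just outside the S100a8 and S100a9 limit lay 10 and 18 cells, and just inside it 17 and 28.

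The rule also set a class of microglia-like profile, the cells with at least 5 UMIs of P2ry12, Tmem119, Sparc and Olfml3 together, called microglia-cut cells here. P2ry12 encodes the purinergic receptor that guides microglial processes, Tmem119 a membrane protein of microglia, Sparc a matrix protein and Olfml3 a secreted protein, all of them abundant in microglia of the adult brain. They were 123 of 234 (52.6%) and 155 of 309 (50.2%) phagocytes of the sort, and 858 of 5265 (16.3%) and 1417 of 5178 (27.4%) phagocytes of the CD45+ libraries. The group means were 51.4% ± 1.70 and 21.8% ± 7.83 (SD, n = 2 each), a difference of 29.5 percentage points. The groups did not overlap, and the exact two-sided permutation test gave p = 0.333, the smallest value that 2 libraries against 2 allow. The class was cut from a count per cell and is a range rather than a type.

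Cells near the cut were common in the CD45+ libraries and cells far above it were common in the sort. With 2 to 4 UMIs of these genes lay 24.0% and 27.4% of the CD45+ phagocytes and 15.4% and 12.6% of the sorted ones. At 20 UMIs or more stood 30.3% and 35.6% of the sorted phagocytes and 4.22% and 10.6% of the CD45+ ones. After each cell was thinned to 2000 UMIs, which left out 46 and 77 sorted and 574 and 226 CD45+ phagocytes, 15.4% and 28.0% of sorted and 3.88% and 6.83% of CD45+ phagocytes still held at least 5. In all other cells of the same libraries, thinned the same way, that share lay between 0.347% and 1.01%. Without the shared barcodes the sorted shares were 52.6% and 36.5%, still above both CD45+ values of 16.5% and 27.4%.

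**Figure D1:**
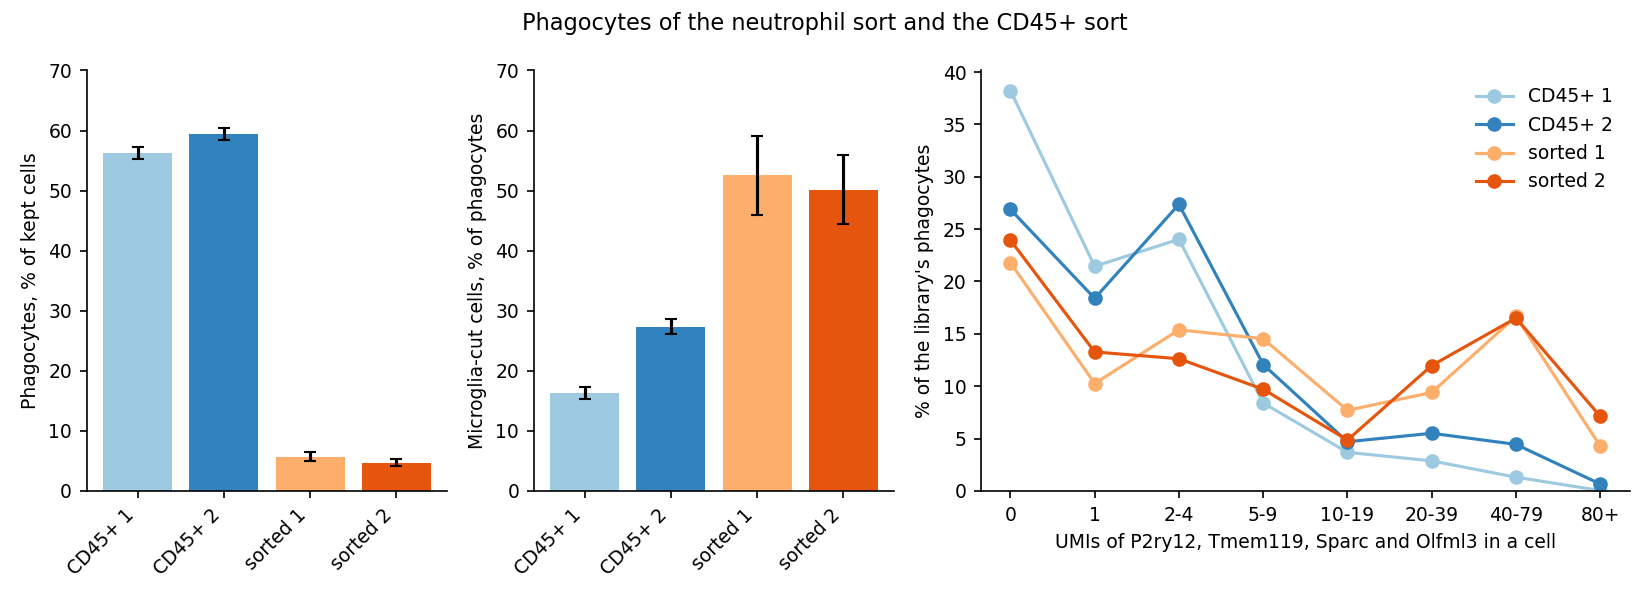
The left and middle panels show, for the 4 tumor libraries, the percentage of kept cells that were phagocytes and the percentage of phagocytes that were microglia-cut cells (bars, with 95% exact binomial intervals), and the right panel shows the percentage of each library's phagocytes by the number of UMIs of the 4 genes per cell. Both sorted libraries have a second peak at 40 to 79 UMIs, with 16.7% and 16.5% of phagocytes, where the CD45+ libraries have 1.31% and 4.44%.

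At the level of summed counts, the 4 genes of the cut were all higher in the sort; the class rests on them, so no test is attached to them. Sparc stood at 553 and 679 CPM in the sorted and 98.9 and 149 in the CD45+ phagocytes, the highest of the 4, and Tmem119 at 224 and 261 CPM in the sorted and 94.1 and 96.3 in the CD45+ phagocytes. P2ry12 (chromosome 3, 59216272 to 59262871, mm10) stood at 208 and 243 CPM in the sorted and 45.9 and 67.9 in the CD45+ phagocytes, and Olfml3 at 284 and 469.8 CPM in the sorted and 69.7 and 102 in the CD45+ phagocytes. CPM is the UMI count of a gene relative to all phagocyte UMIs of its library, on the usual CPM scale and with TMM scaling, and a 3′ UMI count is not divided by gene length.

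Counts were then summed over the phagocytes of each library and compared gene by gene, the 2 sorted libraries against the 2 CD45+ libraries, with edgeR's quasi-likelihood test and Benjamini-Hochberg adjustment. A gene is called at an adjusted p under 0.05. Of 15067 genes tested, 825 (5.48%) were higher in the sorted phagocytes and 710 (4.71%) were lower, 10.2% in all, and 575 of the rises and 348 of the falls were at least 2-fold. The median log2 difference over all genes was −0.04. Both sorted libraries stood above both CD45+ libraries for 28.2% of genes and below both for 32.7%, so an order of this kind is common. In sums over cells, a different mix of cells and a different level per cell cannot be told apart.

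The number of calls changed with each library left out, where the lone library of a group is assumed to vary like the pair of the other group. Without CD45+ library 1 the test called 1246 genes higher and 1187 lower, and without CD45+ library 2 it called 1490 and 1651. Without sorted library 1 or without sorted library 2 it called 0, with 3580 and 3611 genes at an unadjusted p under 0.05, while each of the 1533 called genes tested again kept its direction. That direction was nearly fixed in advance, since the called genes were chosen with both sorted libraries in the fit. With microglia-cut and other phagocytes given equal weight in every library, 163 genes were higher and 55 lower, and 155 and 55 of these were among the 825 and 710. Equal weight scaled the larger class down to the UMI total of the smaller one. Calls lost there and in the lists below may thus also come from fewer counts, which was not tested. Without the shared barcodes 581 were higher and 386 lower, of which 545 and 354 were among the first calls. With them left out of CD45+ library 1 alone, 820 were higher and 708 lower, and 1528 of the 1535 first calls stayed. Calls lost without the shared barcodes may thus come from the loss of deep sorted cells, which was not tested.

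**Figure D2:**
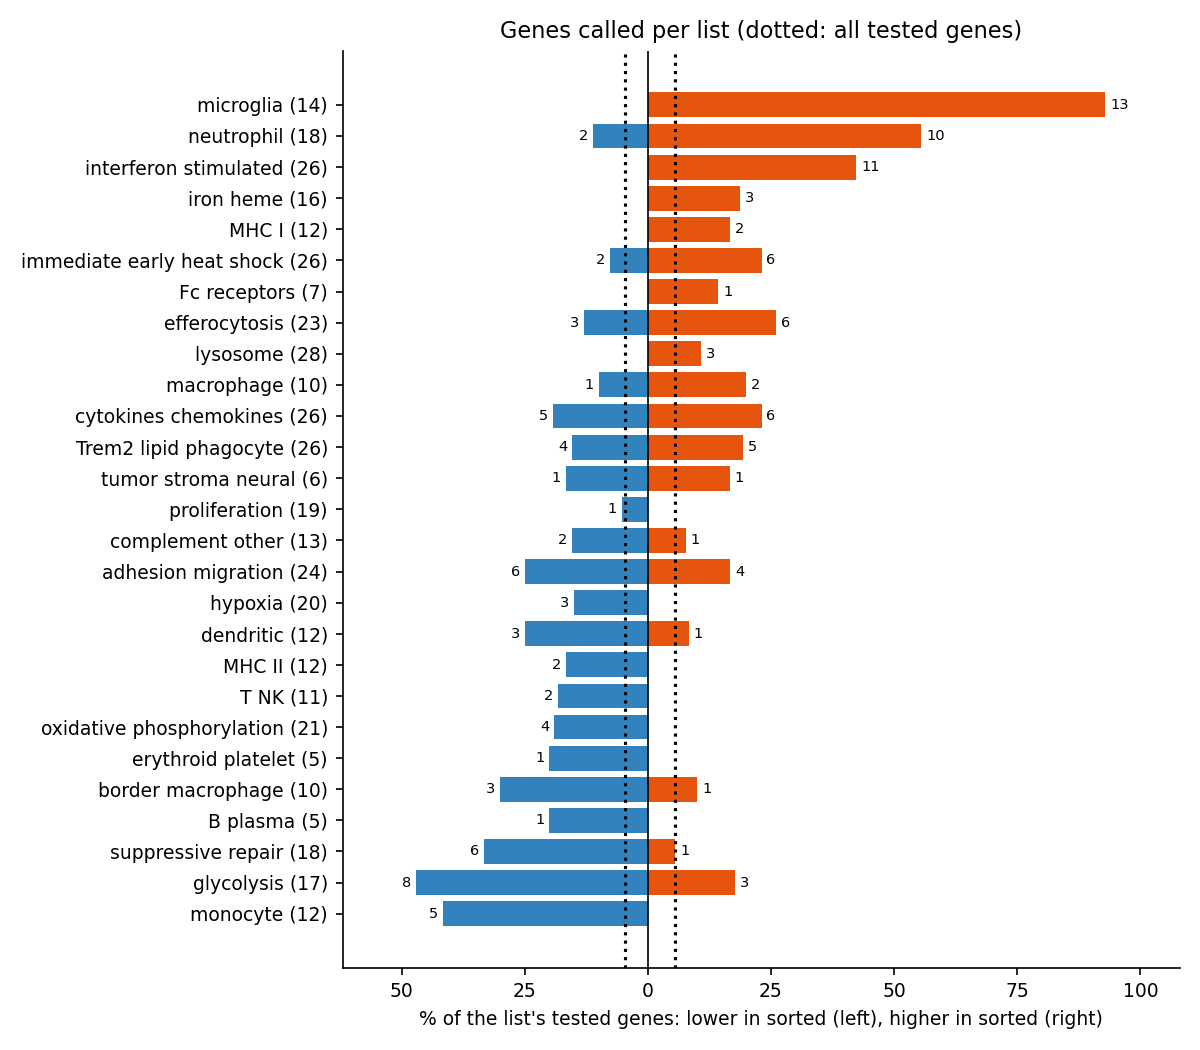
Bars show, for each gene list with at least 5 tested genes (number in brackets), the percentage of its genes called higher (right, orange) or lower (left, blue) in sorted than in CD45+ phagocytes, with the number called at the bar's end. Dotted lines mark the 5.48% higher and 4.71% lower of all tested genes. The microglia list reaches 13 of 14 genes on the right, and the monocyte list 5 of 12 on the left.

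Genes of microglial identity made the clearest group. Of the 14 genes of the microglia list, which leaves out the genes of the cut, 13 rose and none fell, with a median log2 difference of 2.16 against −0.04 for all genes. Sall1, the transcription factor that sets microglial identity (chromosome 8, 89027235 to 89044162, mm10), stood at 51.3 and 60.3 CPM in the sort against 8.81 and 11.2, with log2 difference 2.48 ± 0.19 SE, adjusted p = 0.00867. Its relative Sall3 stood at 44.98 and 47.6 CPM against 6.68 and 9.97 in the CD45+ libraries. Both sorted libraries were several times above both CD45+ libraries for these regulators, and the rest of the sort was below the phagocytes, at 11.6 and 6.14 CPM for Sall1.

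Surface receptors of microglia followed the same order. Siglech, a sialic acid-binding lectin, stood at 149 and 203 CPM in the sorted libraries and 20.7 and 35.5 in the CD45+ libraries, and Gpr34, a lysophospholipid receptor, at 116 and 162 CPM in the sort against 15.7 and 29.1. The log2 differences were 2.65 ± 0.31 and 2.63 ± 0.34, both called. Cx3cr1, the receptor for the neuronal chemokine fractalkine, stood at 817 and 950.2 CPM against 245 and 232 in the CD45+ libraries (log2 difference 1.89 ± 0.13 SE, adjusted p = 0.00867). P2ry13, a second purinergic receptor, stood at 61.8 and 73.1 CPM in the sorted libraries and 15.8 and 20.3 in the CD45+ libraries, and Fcrls, an Fc receptor-like molecule, at 290.3 and 467 CPM in the sort against 94.1 and 144. No sorted library overlapped a CD45+ library for any of these receptors.

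Other members of the list included transporters, enzymes and less-studied genes. Slc2a5, a fructose transporter, stood at 23.5 and 29.5 CPM against 3.56 and 6.31 in the CD45+ libraries. Crybb1, a crystallin that microglia of the developing brain express, stood at 88.9 and 145 CPM in the sorted libraries and 10.4 and 22.7 in the CD45+ libraries, and Lag3, an inhibitory receptor better known from T cells, at 91.3 and 93.4 CPM in the sort against 11.7 and 15.1. Ltc4s, a leukotriene synthase, and Bin1, a membrane-bending protein, rose by less, with log2 differences of 1.13 ± 0.18 and 1.28 ± 0.17. Selplg, the selectin ligand that leukocytes share, stood at 267 and 369.9 CPM against 98.3 and 169.6 in the CD45+ libraries and was not called (adjusted p = 0.0585).

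The size of this group's difference fell when the classes were weighted equally. With both classes at equal weight 6 of the 14 genes were called higher, with a median log2 difference of 1.21, and without the shared barcodes 13 were called, with a median of 2.19. Outside the lists, the largest rises that stood below the phagocytes in the rest of the sort included Ecscr, an endothelial cell-surface regulator, at 41.9 and 44.8 CPM in the sorted libraries and 5.01 and 7.45 in the CD45+ libraries, and Cox6a2, a cytochrome c oxidase subunit, at 41.1 and 37.2 CPM in the sort against 5.27 and 6.69. Adamts1, a matrix metalloprotease, stood at 105 and 80.3 CPM against 9.41 and 19.1 in the CD45+ libraries, and Npl, which degrades sialic acid, at 69.5 and 93.9 CPM in the sorted libraries and 7.71 and 21.3 in the CD45+ libraries. The long RNA A830008E24Rik stood at 32.6 and 22.9 CPM in the sort against 3.73 and 6.03. Npl was no longer called without the shared barcodes (adjusted p = 0.0539).

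Among general macrophage genes few differed. Csf1r and Mertk, an engulfment receptor, rose, with log2 differences of 0.93 ± 0.12 and 0.67 ± 0.12, and Lyz2, which encodes lysozyme of myeloid cells, fell by 0.90 from 8744 and 11577 CPM in the CD45+ libraries to 5399 and 5488 in the sort. Lyz2 was not called without the shared barcodes (adjusted p = 0.0525). With both classes at equal weight none of the 10 genes was called. Over all phagocytes the other 7 were not called, among them Adgre1 (log2 difference 0.32 ± 0.16 SE, adjusted p = 0.263) and the high-affinity antibody receptor gene Fcgr1 (log2 difference 0.38 ± 0.13 SE, adjusted p = 0.123).

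Border macrophage genes had more falls than rises. Of 10 tested, 3 fell and 1 rose, against 4.71% and 5.48% of all tested genes. Pf4, a chemokine of platelets and border macrophages, stood at 527 and 615 CPM against 1598 and 1776 in the CD45+ libraries (log2 difference −1.56 ± 0.14 SE, adjusted p = 0.0087). F13a1, the coagulation factor XIII chain, stood at 304 and 372 CPM in the sorted libraries and 891 and 827 in the CD45+ libraries, and the mannose receptor gene Mrc1 at 142 and 97.9 CPM in the sort against 304 and 345, both below the CD45+ libraries in each sorted library. The list's rise was Gas6, a bridge between dying cells and the TAM receptors, at 96.03 and 126 CPM against 13.6 and 28.4 in the CD45+ libraries. Mrc1 lost its call without the shared barcodes (adjusted p = 0.1), and with both classes at equal weight 1 gene of the list was lower and none higher.

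The other 6 members were not called. Stab1, a scavenger receptor, stood at 142 and 170.1 CPM in the sorted and 157 and 144 in the CD45+ phagocytes and Folr2, a folate receptor, at 7.45 and 19.5 CPM in the sorted and 6.88 and 7.83 in the CD45+ phagocytes, with overlapping groups in both. Cd163, Cbr2, Clec10a and Ccl8 were low, between 0.238 and 10.6 CPM in the 4 libraries. Lyve1 did not pass the filter on low counts.

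Monocyte genes fell or did not pass the test. Of 12 tested, 5 fell and none rose, against 4.71% and 5.48% of all tested genes, with a median log2 difference of −0.70. Vcan, a proteoglycan of monocytes, stood at 33.7 and 33.3 CPM in the sorted libraries and 178 and 157 in the CD45+ libraries (log2 difference −2.32 ± 0.13 SE, adjusted p = 0.00867), and Ccr2, their chemokine receptor for leaving the marrow, at 104 and 101 CPM in the sort against 218 and 239.6 (log2 difference −1.16 ± 0.11 SE, adjusted p = 0.0105). Fn1, fibronectin, was the most abundant of the 5, at 1170.0 and 1269.9 CPM against 3082 and 3268 in the CD45+ libraries. Chil3, a chitinase-like protein, stood at 384 and 617 CPM in the sorted libraries and 1425 and 1058 in the CD45+ libraries, and the integrin gene Itga4 at 49.4 and 57.6 CPM in the sort against 142 and 109. Ly6c2, whose product the sort selected against, stood at 94.6 and 74.3 CPM against 126 and 117 in the CD45+ libraries and was not called (log2 difference −0.53 ± 0.15 SE, adjusted p = 0.0818).

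Most of these falls depended on which cells were summed. With both classes at equal weight the list had 1 gene lower and 2 higher with a median of 0.24, and Ly6c2 was then above the CD45+ libraries, with a log2 difference of 0.52 (adjusted p = 0.13). With the shared barcodes left out 2 of the 5 stayed called. Per cell, after thinning to 2000 UMIs, Fn1 was detected in 42.0% and 36.2% of sorted phagocytes and in 84.2% and 82.5% of CD45+ phagocytes. Arg1, described below, was detected in 24.5% and 19.8% against 74.7% and 74.3%, and unthinned in 23.9% and 23.3% against 79.8% and 82.9%. Thinned shares of both genes were lower in the sort within each class. Among phagocytes below the cut Fn1 had 49.3% and 52.9% against 88.1% and 88.8%, and Arg1 34.8% and 36.5% against 79.9% and 83.9%. Among microglia-cut cells Fn1 had 37.8% and 26.5% against 66.0% and 66.8%, and Arg1 18.5% and 10.2% against 50.5% and 50.1%. In all other cells of the sort, mostly neutrophils, thinned shares were 2.53% and 1.93% for Fn1 and 1.44% and 1.44% for Arg1. Pf4 was detected in 12.8% and 14.7% of sorted and 40.8% and 40.4% of CD45+ phagocytes, and Ccr2 in 12.2% and 10.3% against 30.2% and 28.4%.

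**Figure D3:**
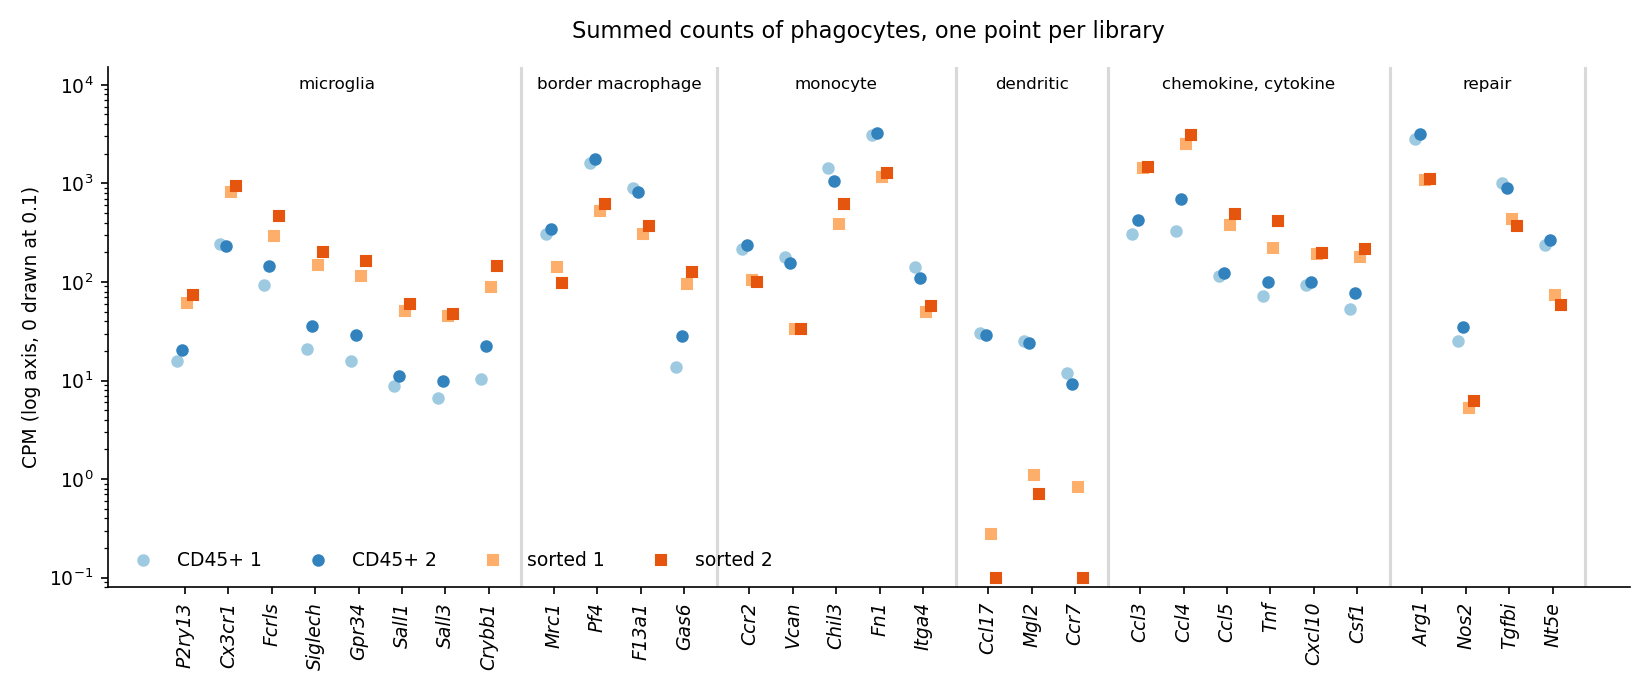
Each point is the summed phagocytes of 1 library, in CPM on a log axis, for genes of 6 groups (circles for CD45+ libraries, squares for sorted libraries). Sorted points lie above the CD45+ points for the 8 microglia genes and below them for the 5 monocyte genes and the 3 dendritic cell genes.

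The largest falls of all were genes of other leukocytes and of dendritic cells. Igkc, the kappa light chain of antibodies, had no UMI in the sorted phagocytes and 91.3 and 34.8 CPM in the CD45+ ones, which is at least 145-fold lower when 3 counts over both sorted libraries are taken as the floor. Ccl17, a dendritic cell chemokine, had 1 UMI in the sorted phagocytes and 4280 in the CD45+ ones, a ratio of 224 with a 95% exact interval from 40.2 to 8849 for counting error alone. Mgl2, a lectin of dendritic cells and macrophages, stood at 1.104 and 0.715 CPM in the sorted libraries and 25.2 and 23.9 in the CD45+ libraries (log2 difference −4.77 ± 0.27 SE, adjusted p = 0.00867). Of the 12 dendritic genes tested, 3 fell (Ccl17, Mgl2 and the migration receptor gene Ccr7) and 1 rose (Fscn1, at 17.4 and 30.01 CPM in the sort against 7.81 and 8.57). Of all tested genes 4.71% fell and 5.48% rose. Fscn1 was not called without the shared barcodes (adjusted p = 0.0576).

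The same genes were higher in the CD45+ cells that were not phagocytes. There Igkc reached 229 and 155 CPM, Ccl17 reached 244 and 332, and Ccr7 reached 111 and 125, each above the phagocytes of the same library, and in the non-phagocytes of the sort they were at 3.34 CPM or less. The part of neighbouring cells' RNA in these falls was not tested. Granzyme genes Gzma and Gzmb had no UMI in sorted phagocytes and were at least 17.6-fold and 11.03-fold lower. These 2 of 11 T and NK cell genes and Jchain, at least 7.62-fold lower, of 5 B cell genes were the genes of the lymphocyte lists that were called. Without the shared barcodes Gzmb alone of the 3 stayed called (adjusted p = 0.0635 for Gzma and 0.0522 for Jchain), and with both classes at equal weight none did. All 11 T and NK genes were below both CD45+ libraries in both sorted libraries, an order that 32.7% of all tested genes had. Their summed levels were 23.2 and 0.476 CPM against 120 and 51.0. These are low counts, since the sorted phagocytes held 3509658 and 4227073 UMIs and the CD45+ ones 57114563 and 90714808.

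Several other large falls belonged to no list. Spink2, a protease inhibitor, stood at 1.66 and 1.91 CPM against 35.5 and 28.3 in the CD45+ libraries, and Serpinb1a, an inhibitor of neutrophil serine proteases, at 2.21 and 1.67 CPM in the sorted libraries and 22.4 and 26.1 in the CD45+ libraries. Cdh1, E-cadherin, stood at 4.14 and 2.62 CPM in the sort against 30.6 and 36.9, and Slc7a2, a transporter of arginine and other cationic amino acids, at 20.7 and 10.2 CPM against 109 and 144 in the CD45+ libraries (log2 difference −3.05 ± 0.33 SE, adjusted p = 0.0116). Il12rb2, an interleukin-12 receptor chain, stood at 1.38 and 2.14 CPM in the sorted libraries and 19.3 and 21.9 in the CD45+ libraries, and P2ry10, a lysophosphatidylserine receptor, at 3.04 and 2.62 CPM in the sort against 25.3 and 18.5. Ear2, an eosinophil-associated ribonuclease, stood at 4.42 and 5.48 CPM against 45.9 and 27.02 in the CD45+ libraries, Cgnl1, a junction protein, at 3.04 and 2.86 CPM in the sorted libraries and 24.3 and 20.2 in the CD45+ libraries, and Lepr, the leptin receptor, at 1.93 and 0 CPM in the sort against 21.1 and 27.3. The naming rule required both sorted libraries to lie below both CD45+ libraries for each of these genes. Ear2 lost its call without the shared barcodes (adjusted p = 0.0621).

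Neutrophil genes formed the second group of rises, and their level in the rest of the sort was far higher. Of 18 neutrophil genes tested, 10 rose and 2 fell, against 5.48% and 4.71% of all tested genes, with a median log2 difference of 1.47. G0s2, a lipolysis inhibitor of mature neutrophils, stood at 246 and 172 CPM against 10.7 and 20.3 in the CD45+ libraries (log2 difference 3.75 ± 0.37 SE, adjusted p = 0.0103), and in all other cells of the sort at 4426 and 3751. Stfa2l1, a stefin of neutrophils from a gene family of near copies, stood at 75.3 and 45.97 CPM in the sorted libraries and 2.87 and 3.43 in the CD45+ libraries, against 1146 and 1436 in the other cells. Retnlg stood at 75.3 and 113 CPM in the sort against 7.49 and 13.3, Csf3r, the G-CSF receptor, at 173 and 161 CPM against 38.3 and 44.6 in the CD45+ libraries, and Cxcr2, a chemokine receptor of neutrophils, at 49.9 and 45.7 CPM in the sorted libraries and 3.84 and 9.05 in the CD45+ libraries. The other rises of this kind that the naming rule chose were Il1f9, an interleukin-36, at 39.7 and 22.4 CPM in the sort against 2.62 and 2.13, Myo1d, a myosin, at 76.7 and 46.7 CPM against 6.11 and 4.302 in the CD45+ libraries, 4732465J04Rik at 28.4 and 20.7 CPM in the sorted libraries and 2.01 and 2.42 in the CD45+ libraries and Gm20406 at 38.9 and 17.6 CPM in the sort against 1.497 and 2.46.

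The summed neutrophil markers of sorted phagocytes reached 8.14% and 5.23% of their level in the neutrophil-profile cells of the same library, and those of CD45+ phagocytes 6.02% and 6.07% of theirs. Of the 825 rises, 280 (33.9%) had more CPM in the other cells of both sorted libraries than in the phagocytes, against 25.2% of all tested genes and 26.6% of the falls. After a share of the neutrophil-profile counts, set by these same summed markers, was subtracted from each library, 751 genes were higher and 634 lower. Of the 10 neutrophil genes left to test 2 rose and 2 fell, where fewer rises follow from how the share was set. The falls were Wfdc21 and Trem1, an amplifier of inflammation, with log2 differences of −14.03 and −1.24 after the subtraction. Both were also called lower without it. Without the subtraction Wfdc21 stood at 16.6 and 38.6 CPM against 94.98 and 90.9 in the CD45+ libraries. Trem1 without it stood at 111 and 115 CPM in the sorted libraries and 164 and 178 in the CD45+ libraries. Without the phagocytes richer in neutrophil than macrophage UMIs, 8 of the 18 rose and 3 fell.

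**Figure D4:**
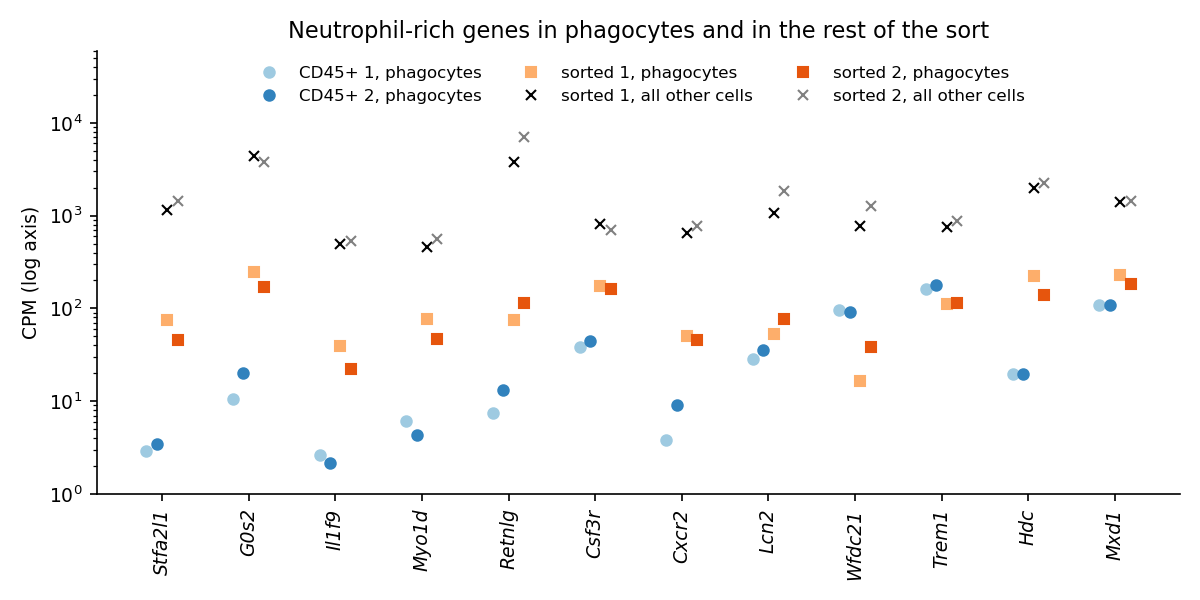
For 12 genes abundant in neutrophils, points show CPM on a log axis in the phagocytes of each library (circles and squares) and in all other cells of the 2 sorted libraries (crosses). Crosses lie above every phagocyte point, and squares lie above circles for 10 genes and below them for Wfdc21 and Trem1.

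Genes of phagocytosis and digestion showed smaller and mixed differences. Of 23 genes for the uptake of dying cells, 6 rose and 3 fell, against 5.48% and 4.71% of all tested genes. Pros1, with Gas6 a ligand of the TAM receptors, stood at 82.5 and 110.0 CPM in the sort against 31.3 and 40.7 (log2 difference 1.42 ± 0.20 SE, adjusted p = 0.0188), and Itgb5, part of an integrin that binds coated dying cells, at 368 and 433 CPM against 213 and 208 in the CD45+ libraries. Itgb3, a relative of Itgb5, stood at 14.1 and 14.1 CPM in the sorted libraries and 5.52 and 3.86 in the CD45+ libraries, and the remaining rises were Mertk, Gas6 and Cd300lf. Mfge8, which coats dying cells, stood at 8.55 and 9.29 CPM in the sort against 19.3 and 17.6, and Dock1, an engulfment adaptor, and Cd47, the "do not eat" signal, fell by 0.73 and 0.78 on the log2 scale. None of the 23 was called with both classes at equal weight.

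Antibody receptor genes gave a single call. Of 7 tested, only Fcgrt, the neonatal Fc receptor chain, was called, at 62.1 and 72.2 CPM against 33.6 and 32.7 in the CD45+ libraries (log2 difference 1.02 ± 0.13 SE, adjusted p = 0.0152). Fcer1g, the signalling chain, stood at 2305 and 2549.8 CPM in the sorted and 2523 and 2535 in the CD45+ phagocytes. Fcgr3 stood at 647 and 771 CPM in the sorted and 517 and 668 in the CD45+ phagocytes, Fcgr2b at 516 and 512 CPM in the sorted and 406 and 656 in the CD45+ phagocytes and Fcgr4 at 157 and 176 CPM in the sorted and 189 and 164 in the CD45+ phagocytes, and the groups overlapped for each of the 3. The log2 differences of the receptors that were not called ran from −0.08 to 0.47.

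Of 28 lysosome genes 3 rose and none fell, where 10.2% of all tested genes were called, and none of the 3 calls remained with both classes at equal weight. Among the rises, Ctsd, cathepsin D, stood at 3813 and 4338 CPM in the sorted libraries and 2649 and 2537 in the CD45+ libraries, and Ctss, cathepsin S, at 4584 and 4757 CPM in the sort against 2451 and 3036. Neither of the pair was called without the shared barcodes. Of 13 further complement genes C4b, a component of the classical pathway, rose, at 128 and 138 CPM against 20.4 and 26.2 in the CD45+ libraries (log2 difference 2.52 ± 0.16 SE, adjusted p = 0.00867). Cfp, properdin of the alternative pathway, fell, at 84.99 and 80.99 CPM in the sorted libraries and 212 and 229.5 in the CD45+ libraries, as did Cd93, a receptor once linked to C1q, at 54.9 and 63.6 CPM in the sort against 137 and 138.

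In the list of Trem2 and lipid-handling genes 5 rose and 4 fell of 26, against 5.48% and 4.71% of all tested genes. Trem2, the lipid-sensing receptor of microglia and macrophages, stood at 735 and 759 CPM against 368 and 413 in the CD45+ libraries (log2 difference 0.94 ± 0.12 SE, adjusted p = 0.0152). Apoc1, an apolipoprotein, stood at 126 and 146 CPM in the sorted libraries and 30.2 and 39.6 in the CD45+ libraries, and Cst7, a protease inhibitor, at 81.4 and 116 CPM in the sort against 22.9 and 34.6, and Ctsd and Csf1 were the other rises. Msr1, a scavenger receptor, stood at 256 and 193 CPM against 423 and 456 in the CD45+ libraries, and Lgals3, galectin-3, at 739.5 and 602 CPM in the sorted libraries and 1578 and 1493 in the CD45+ libraries, both lower in the sort, with Fabp5 and Apoc2. The list's median was −0.05, close to that of all genes. The 5 and 4 calls became 4 and 1 without the shared barcodes (adjusted p = 0.0604 for Msr1) and 2 and 0 with both classes at equal weight.

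Interferon-stimulated genes leaned upward. Of 26 tested, 11 rose and none fell, against 5.48% and 4.71% of all tested genes, with a median log2 difference of 0.69. With both classes at equal weight 6 were called, and without the shared barcodes 9 were. Isg15, a ubiquitin-like modifier, stood at 188 and 199 CPM in the sort against 79.1 and 94.1 (log2 difference 1.16 ± 0.13 SE, adjusted p = 0.0123). Ifit3 stood at 64.8 and 70.3 CPM against 20.8 and 25.6 in the CD45+ libraries and its near copy Ifit3b at 18.8 and 13.8 CPM in the sorted libraries and 3.68 and 4.36 in the CD45+ libraries, so reads of this pair may be split between them. Ifit1, an RNA-binding effector, stood at 36.98 and 36.7 CPM in the sort against 19.3 and 22.9, and Irf7, the transcription factor of the response, at 86.1 and 96.5 CPM against 54.98 and 57.9 in the CD45+ libraries. The remaining rises were Isg20, Ifit2, Oasl1, Oasl2, Ifi204 and Rtp4. In the other cells of the sort Isg15 was at 390 and 375 CPM and Ifit1 at 91.7 and 103, both above the phagocytes, and without the phagocytes richer in neutrophil UMIs 7 of the 26 were called.

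The promoters of Isg15 and Ifit1 are printed because many interferon-stimulated genes carry a response element that interferon-activated factors bind, and the genes of this list that were called all rose. Windows ran from 250 bases before to 50 after the start site, from RefSeq on GRCm38.p6, and were searched on both strands for GAAA followed, after any 2 bases, by a second GAAA, where matches may overlap each other. Capitals mark the matches, which read as TTTC, any 2 bases and TTTC where the match is on the other strand.
Isg15, chr4:156200769-156201068, minus strand: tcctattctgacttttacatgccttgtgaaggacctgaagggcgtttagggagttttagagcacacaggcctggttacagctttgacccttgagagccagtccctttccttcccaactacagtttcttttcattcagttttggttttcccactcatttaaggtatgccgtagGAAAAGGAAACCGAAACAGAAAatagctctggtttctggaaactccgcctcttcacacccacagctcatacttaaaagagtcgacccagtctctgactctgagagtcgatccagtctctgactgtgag
Ifit1, chr19:34640639-34640938, plus strand: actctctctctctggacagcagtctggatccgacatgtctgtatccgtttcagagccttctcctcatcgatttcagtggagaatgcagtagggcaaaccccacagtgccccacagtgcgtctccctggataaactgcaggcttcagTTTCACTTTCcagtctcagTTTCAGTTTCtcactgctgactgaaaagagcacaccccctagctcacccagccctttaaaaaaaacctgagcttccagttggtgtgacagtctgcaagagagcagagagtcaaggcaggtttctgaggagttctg
Isg15 held 3 matches and Ifit1 held 2. Of the 11 genes that rose, 9 had a window in the table and 4 of these held the motif (Isg15, Ifit1, Ifit3 and Ifit3b), and of the 15 not called 11 had a window and 8 held it. Among all tested genes with a window 441 of 11200 (3.94%) held it, and among all windows 1131 of 32851 (3.44%). A match is a string of letters and was not tested for binding.

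Antigen presentation genes gave 4 calls, and the difference between the class I and class II lists was not tested. Of all tested genes 5.48% were called higher and 4.71% lower. Of 12 genes of MHC class I presentation 2 rose and none fell, namely H2-K1, at 1308 and 1258 CPM in the sorted libraries and 741 and 802 in the CD45+ libraries, and H2-Q7, a member of a family of near copies, at 174 and 138 CPM in the sort against 79.8 and 86.5. Of 12 genes of the class II list 2 fell and none rose, namely H2-DMb2, at 7.45 and 5.72 CPM against 15.4 and 15.6 in the CD45+ libraries, and the co-stimulator gene Cd80. H2-Aa, a class II chain, stood at 243 and 67.4 CPM in the sorted and 364 and 310.1 in the CD45+ phagocytes and was not called (log2 difference −1.12 ± 0.55 SE, adjusted p = 0.241). The 2 sorted libraries differed more for it than the CD45+ libraries did. None of these 4 calls remained with equal weight, and the class II calls were lost without the shared barcodes as well.

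Cytokine genes moved in both directions, 6 up and 5 down of 26, against 5.48% and 4.71% of all tested genes. Ccl4 stood at 2493 and 3079 CPM in the sorted libraries and 326 and 698 in the CD45+ libraries (log2 difference 2.44 ± 0.38 SE, adjusted p = 0.0227) and Ccl3 at 1418 and 1451 CPM in the sort against 309 and 429 (log2 difference 1.96 ± 0.19 SE, adjusted p = 0.00988), 2 inflammatory chemokines that microglia make when activated. Ccl5, another inflammatory chemokine, stood at 374 and 484 CPM against 115 and 124 in the CD45+ libraries. Tnf stood at 223 and 419 CPM in the sorted libraries and 72.3 and 101 in the CD45+ libraries, Csf1, the ligand of Csf1r, at 179.6 and 215 CPM in the sort against 53.1 and 77.3 and Cxcl10, an interferon-induced chemokine, at 191 and 197 CPM against 92.4 and 99.4 in the CD45+ libraries. Ccl3 and Ccl4 were higher still in the other cells of the sort, at 5412 and 5976 and at 6008 and 6717 CPM, whereas Ccl5 was lower there, at 62.3 and 43.0. The falls were Ccl6, at 913 and 1702 CPM in the sorted libraries and 3487 and 3795 in the CD45+ libraries, Ccl9, at 267 and 391 CPM in the sort against 757 and 805, Cxcl14, Il12b and Pf4. Il12b, an interleukin-12 subunit, was low, at 1.66 and 1.91 CPM against 7.14 and 7.26 in the CD45+ libraries, and was not called without the shared barcodes (adjusted p = 0.083).

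Immediate early genes, which cells switch on within minutes of a stimulus, rose for 6 of 26 genes of a list that also holds heat shock genes, and 2 fell. Of all tested genes 5.48% rose and 4.71% fell. Jun stood at 1384 and 1457 CPM in the sorted libraries and 568 and 541 in the CD45+ libraries (log2 difference 1.36 ± 0.12 SE, adjusted p = 0.00867) and Egr1 at 1114 and 1266 CPM in the sort against 379 and 479.7 (log2 difference 1.47 ± 0.16 SE, adjusted p = 0.0119). Atf3, a stress-responsive factor, stood at 967 and 1118 CPM against 436 and 387 in the CD45+ libraries, and Fos at 2696 and 2935 CPM in the sorted libraries and 1321 and 1815 in the CD45+ libraries. Jund and Dusp1 were the other rises, and the falls were the chaperone genes Hsph1, at 19.04 and 26.7 CPM in the sort against 47.1 and 52.8, and Hspd1. Fos was not called without the shared barcodes (adjusted p = 0.065), and with both classes at equal weight the list had 3 genes higher and none lower.

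Genes linked to repair and to suppression of T cells had more falls than rises. Of 18 tested, 6 fell and 1 rose, against 4.71% and 5.48% of all tested genes. Arg1, which consumes arginine, stood at 1073 and 1118 CPM against 2814 and 3176 in the CD45+ libraries (log2 difference −1.45 ± 0.13 SE, adjusted p = 0.00867), and Nos2, which also uses arginine, at 5.24 and 6.19 CPM in the sorted libraries and 25.1 and 34.9 in the CD45+ libraries (log2 difference −2.39 ± 0.25 SE, adjusted p = 0.0116). Tgfbi, a matrix protein induced by TGF-beta, stood at 437 and 366 CPM in the sort against 1018 and 890.5 and Nt5e, CD73 of the adenosine pathway, at 74.5 and 58.4 CPM against 238 and 265 in the CD45+ libraries, and Chil3 and Mrc1 were the other falls. The rise was Entpd1, CD39 of the same pathway, at 357 and 345 CPM in the sorted libraries and 192 and 162 in the CD45+ libraries. The list's median was 0.12, of opposite sign to most of its calls, and with both classes at equal weight 2 genes fell and none rose.

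Glycolysis genes were called lower more often than higher. Of 17 tested, 8 fell (Gpi1, Pfkp, Tpi1, Gapdh, Pgk1, Pgam1, Pkm and Slc16a3) and 3 rose, against 4.71% and 5.48% of all tested genes. Pgk1 stood at 232 and 228 CPM in the sort against 448 and 442 (log2 difference −0.95 ± 0.11 SE, adjusted p = 0.0122) and Gapdh at 1363 and 1559 CPM against 2278 and 2209.5 in the CD45+ libraries. Slc2a3, a glucose transporter that is abundant in neutrophils, stood at 40.3 and 30.97 CPM in the sorted libraries and 5.44 and 6.57 in the CD45+ libraries, and in the other cells of the sort at 272 and 212. Hk2, hexokinase 2, stood at 313 and 292 CPM in the sort against 149 and 176 and Pfkfb3, which makes an activator of glycolysis, at 147 and 177 CPM against 79.7 and 79.4 in the CD45+ libraries. With equal weight 1 gene of the list was higher and none lower, with a median log2 difference of −0.24 in place of −0.62.

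The next 5 lists are read beside the 5.48% of all tested genes called higher and 4.71% called lower. Genes induced by low oxygen fell or were not called. Ndrg1 stood at 20.4 and 10.96 CPM in the sorted libraries and 67.04 and 60.2 in the CD45+ libraries (log2 difference −2.03 ± 0.28 SE, adjusted p = 0.0179) and Higd1a at 125 and 122 CPM in the sort against 216 and 215, and Hif1a, the oxygen-regulated factor itself, fell by 0.67; these 3 of 20 were called and none rose. Of 21 genes of the respiratory chain 4 fell, among them Cox5a, at 259 and 288 CPM against 497 and 523 in the CD45+ libraries, and Atp5o, at 116 and 129.8 CPM in the sorted libraries and 197 and 191 in the CD45+ libraries, and none rose. Of 16 iron genes 3 rose, among them Slc40a1, the iron exporter ferroportin, at 30.6 and 25.7 CPM in the sort against 9.98 and 10.1, with Slc11a1 and Steap4. Of 24 adhesion and migration genes 4 rose and 6 fell, with Icam1 at 163 and 202 CPM against 54.9 and 56.7 in the CD45+ libraries and Mmp19, a matrix metalloprotease, at 24.8 and 34.8 CPM in the sorted libraries and 109.7 and 111 in the CD45+ libraries. Of 19 proliferation genes Mcm4, part of the replicative helicase, was called, at 14.3 and 15.2 CPM in the sort against 27.3 and 35.3, and without the shared barcodes 5 were called lower. With both classes at equal weight these lists had few calls, 1 lower for low oxygen, none for the respiratory chain, iron and proliferation, and 1 higher and 1 lower for adhesion and migration.

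Remaining marker lists of other cells held 1 or 2 calls each. Siglecf, the only passing gene of 8 for mast cells, basophils and eosinophils, rose, at 12.97 and 17.4 CPM against 2.93 and 5.498 in the CD45+ libraries, and was not called without the shared barcodes (adjusted p = 0.0604). Ppbp, a platelet chemokine, fell, at 9.11 and 4.76 CPM in the sorted libraries and 30.6 and 64.9 in the CD45+ libraries. Col1a1, a collagen of stroma, rose from a low level, at 2.21 and 2.14 CPM in the sort against 0.172 and 0.311, and Mbp, myelin basic protein, fell, at 33.7 and 34.3 CPM against 63.3 and 50.7 in the CD45+ libraries, and lost its call without the shared barcodes (adjusted p = 0.0832). With both classes at equal weight these lists had no call. Their summed levels in all 4 libraries were at most 102 CPM for the tumor, stroma and neural list and at most 67.2 for the red cell and platelet list.

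The edgeR test was then repeated inside each class without the genes of the cut. Each class is a range of a count per cell, so cell mix and level per cell cannot be told apart within it either. Within microglia-cut cells 191 genes (1.52%) rose and 221 (1.76%) fell of 12572, 3.28% in all. All 191 rises and 206 of the falls were also called over all phagocytes. Within the other phagocytes 14 (0.0998%) rose and 1 (0.00713%) fell of 14034, 0.107% in all, with 2229 at an unadjusted p under 0.05, and DESeq2 called 496 higher and 181 lower. Of those 14 rises 13 were also called in microglia-cut cells. Depth differed between these classes, since sorted microglia-cut cells had median UMIs of 20432 and 19528 and other sorted phagocytes 3398 and 2531, against 8209 and 13075 for other CD45+ phagocytes. The other sorted phagocytes held medians of 13 and 12.5 UMIs of the macrophage list and 7 and 3 of the neutrophil list. For the other CD45+ phagocytes these medians were 84 and 166, and 6 and 10.

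Microglia-cut cells of the sort differed from microglia-cut cells of the CD45+ libraries, and the microglia list was part of it. Within them 9 of the 14 genes of that list rose, with a median log2 difference of 1.19 against −0.01 for all genes tested, and all 14 were above in both sorted libraries, an order that 26.1% of the genes tested there had. Sall1 differed by 1.17 ± 0.14 and Siglech by 1.35 ± 0.20. Of 11 monocyte genes 6 fell, with Vcan at −2.96 ± 0.26 and Chil3 at −1.97 ± 0.16, and of 9 border macrophage genes 3 fell, with Pf4 at −1.38 ± 0.15. Chemokine genes Ccl3, at 1.47 ± 0.17, and Ccl4, at 1.69 ± 0.32, rose there too, and Arg1 was lower, at −1.18 ± 0.16. Without the shared barcodes, which included 71 of the 155 microglia-cut cells of sorted library 2, the test called 0 genes in this class. Among cells with at least 20 UMIs of the cut genes, 91 rose and 178 fell. Such cells were 71 of 123 and 110 of 155 microglia-cut cells of the sort. In the CD45+ libraries they were 222 of 858 and 549 of 1417. The class thus differed between sorts in how far its cells lay above the cut. The part of this in the differences given here was not tested.

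The difference between sorts was itself compared between the classes, with library as a block. These p-values therefore measure the spread of the class difference after the level of each library is removed. This interaction was called for 305 of 13296 genes (2.29%), 80 with the larger log2 difference in microglia-cut cells and 225 with the larger one in the other phagocytes, and for 74 without the shared barcodes. H2-Aa was lower in sorted than CD45+ cells within the microglia-cut class, with a log2 difference of −3.57 ± 0.52 SE, and differed by 0.74 ± 0.52 in the other class, so that its interaction was −4.30, adjusted p = 1.1e-06. H2-Ab1 (−3.41, adjusted p = 2.5e-06) and Cd74, the class II chaperone (−2.84, adjusted p = 1.3e-05), had the same pattern. Ly6c2 (−1.95, adjusted p = 0.000165), Chil3 (−2.20, adjusted p = 0.000366), Ccr2 (−1.90, adjusted p = 0.0104) and Plac8 (−3.21, adjusted p = 2.5e-06), genes of monocytes, also had negative log2 differences in microglia-cut cells and positive ones in the other class. Itga4 was at −1.64 ± 0.20 in microglia-cut cells and −0.09 ± 0.24 in the other class (−1.54, adjusted p = 0.00442). Vcan was lower in the sort in both classes, at −2.96 ± 0.26 and −0.81 ± 0.16 (−2.15, adjusted p = 0.00518). These genes were picked for a called interaction and so are examples rather than a test of their groups. Detection per cell in the other class, after thinning to 2000 UMIs, did not always follow the sums. Ccr2 was detected in 23.2% and 24.7% of sorted and 33.7% and 33.9% of CD45+ cells. Any of H2-Aa, H2-Ab1 and H2-Eb1 was detected in 29.0% and 16.5% against 32.3% and 25.3%. Ly6c2 was detected in 18.8% and 23.5% against 16.6% and 16.1%. In this class, sorted cells with at least 8000 UMIs were 34.2% and 31.2% of cells and held 81.7% and 78.5% of UMIs.

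A further set was higher in the sort in both classes, by more in the other phagocytes. Crybb1 differed by 1.53 ± 0.29 within microglia-cut cells and by 4.05 ± 0.49 within the other phagocytes, and its interaction was −2.49, adjusted p = 0.00439. Ecscr (−2.74, adjusted p = 0.0221), Gpr34 (−1.43, adjusted p = 0.0123) and Cst7 (−2.32, adjusted p = 0.00675) had the same order. In the other class their CD45+ levels were low, with Crybb1 at 1.99 and 2.24 CPM, and sorted levels of 19.3 and 50.8. Mertk went the other way, differing by 0.44 ± 0.13 in microglia-cut cells and by −0.98 ± 0.29 in the other cells (1.44, adjusted p = 0.00529).

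**Figure D5:**
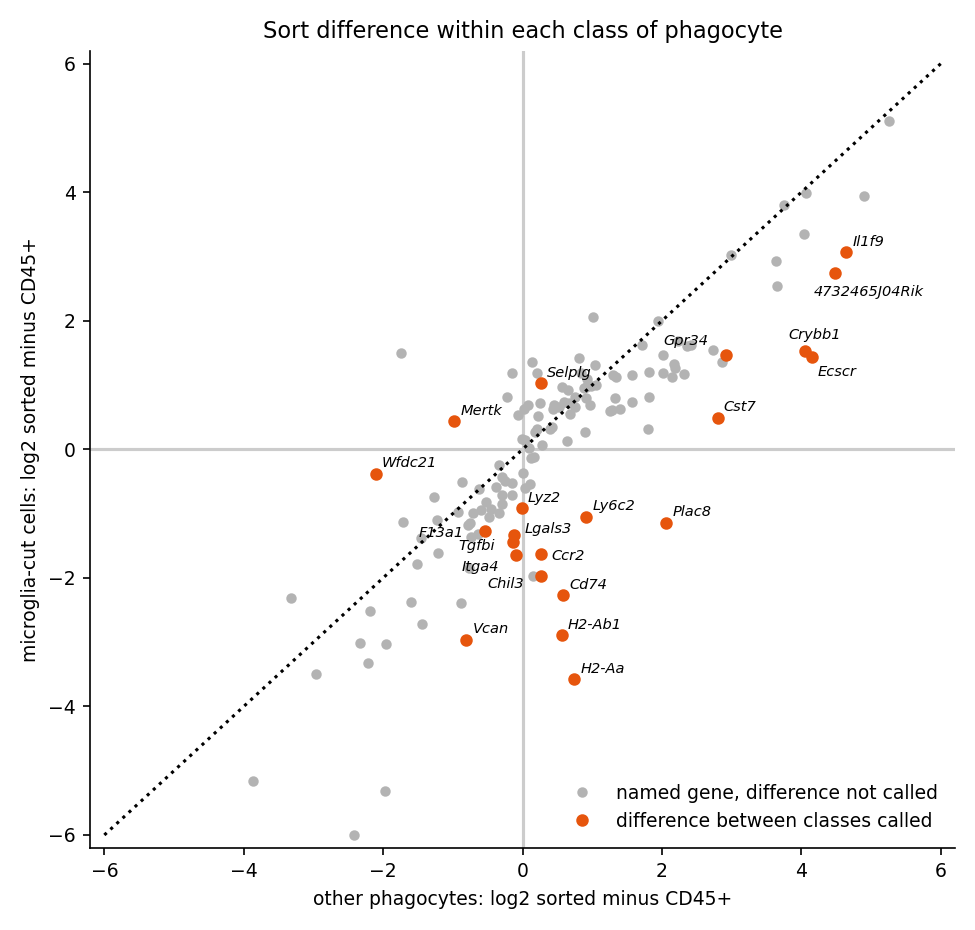
Each point is a named gene with a log2 difference of sorted minus CD45+ within the other phagocytes (x axis) and within microglia-cut cells (y axis), for 141 genes inside the plotted range. The dotted line marks equal differences, and orange points with names are the 22 genes whose difference between the classes was called; H2-Aa, H2-Ab1, Cd74, Ly6c2 and Plac8 lie below the line on the right of 0.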

How the data were processed

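The authors deposited filtered matrices of raw UMI counts, 1 value for each gene in each cell. Per the submitters' processing notes, Cell Ranger 7.1.0 and the mm10 build were used to make them. Counts were summed over phagocytes per library and tested with edgeR 4.0.16 (filterByExpr, TMM, quasi-likelihood test, R 4.3.3), without the 6 genes of the rule and the mitochondrial genes, and within the classes also without the 4 genes of the cut. The groups entered were the 2 sorted and 2 CD45+ tumor libraries, with no covariate except in the interaction test. That test used 2 sums per library, 1 for each class, with library as a block, class, and class by sort. The procedure was tested on simulated data. The cells, the gene lists and the rule for named genes were chosen with earlier results of these data known. Named were the 12 largest rises and 12 largest falls among called genes with at least 20 CPM and no overlap, 6 rises that were not lower in the rest of the sort, and the 2 largest changes of each list; further genes were chosen after their values were seen. Scrublet's automatic threshold marked 0 tumor cells and so did not work, and doublets were kept. Alternatives covered normalization, filters, thresholds, depth, class weight, shared barcodes and each library left out. Clec7a, Mx1 and Mx2 were not analysed here. Positions are from GENCODE vM21 (mm10), which held all 157 named genes.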

Additional observations from a re-analysis of the deposited data

Results flagged for a closer look

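The difference between sorts depended on the class of phagocyte for 305 genes, by the interaction test of edgeR. Each value here is the log2 difference of sorted minus CD45+ in microglia-cut cells, minus that same difference in the other phagocytes. It is not a level of one class against the other. Among macrophage, monocyte and antigen presentation genes they were −4.30 for H2-Aa, −3.41 for H2-Ab1, −2.84 for Cd74, −3.21 for Plac8, −2.20 for Chil3, −2.15 for Vcan, −1.95 for Ly6c2, −1.90 for Ccr2, −1.54 for Itga4, −0.89 for Lyz2, −0.72 for F13a1, −1.34 for Tgfbi and −1.25 for Lgals3. Among microglial and phagocyte genes they were −2.49 for Crybb1, −2.74 for Ecscr, −1.43 for Gpr34, −2.32 for Cst7, 1.44 for Mertk and 0.79 for Selplg. Among genes abundant in neutrophils they were −1.60 for Il1f9, −1.73 for 4732465J04Rik and 1.72 for Wfdc21. Depth differed with class and sort as given above, and its part was not tested.

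In the blood sort, which no comparison above used, 6 and 5 cells met the rule for phagocytes and none of these 11 cells was a microglia-cut cell.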

How the results depend on the processing

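Over all phagocytes, 825 genes were higher and 710 lower. These counts became 1245 and 1090 with DESeq2, 475 and 402 with S100a8 and S100a9 under 0.2% of UMIs, 1563 and 1461 under 2%, 294 and 174 after thinning to 2000 UMIs, and 163 and 55 with both classes at equal weight. Without a filter on low counts 1246 were lower, and without the shared barcodes 386 were. Leaving out 1 library at a time gave 0 to 1490 higher and 0 to 1651 lower, with 0 when either sorted library was left out, for which the cause was not tested. Apart from the replicate block given below, each of the other alternatives stayed within 1.5 times both counts. Within microglia-cut cells the 412 calls became 2213 without the filter, 939 with DESeq2, 0 without the shared barcodes and 269 at 20 UMIs or more, and 0 to 1831 with a library left out. Within the other phagocytes the 15 calls became 186 without the filter, 677 with DESeq2, 94 without the shared barcodes, 0 without the cells richer in neutrophil markers, 0 among cells with at least 8000 UMIs, and 0 to 729 with a library left out. The 305 interaction calls became 898 without the filter, 74 without the shared barcodes, and 174 to 1093 with a library left out. The cause of these moves was not tested.

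The replicate numbers are not stated to pair libraries, and with 2 pairs the correlation of deviations was 0.0783, so they were not treated as pairing. A replicate block gave 1429 higher and 1563 lower over all phagocytes, 1358 calls within microglia-cut cells and 868 within the other phagocytes.

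Phagocytes were 4.17% of sorted and 37.6% of CD45+ cells at a C1q and Apoe share of 1%, 6.28% and 71.0% at 0.1%, and 3.74% and 7.68% of sorted cells with S100 limits of 0.2% and 2%. The microglia-cut share of sorted phagocytes was 61.5% at a C1q and Apoe share of 1%, 42.8% at 0.1%, 55.4% with the S100 limit of 0.2%, 44.5% without the shared barcodes and 72.8% among cells with at least 8000 UMIs. Sorted and CD45+ shares were 60.0% and 35.4% at 3 UMIs, 39.2% and 11.6% at 10 UMIs, and 21.7% and 5.35% after thinning.

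Of 157 named genes under these alternatives, 2563 of 3113 log2 differences kept direction and side of the threshold, 488 lost the call, 29 gained it and 33 changed sign. Of the 135 called genes, 1 changed sign, Wfdc21, at 0.0025 with the S100 limit of 2%. With a library left out, Ptprc ran from −0.12 to 0.15, Itgam from −0.087 to 0.23, Folr2 from −0.018 to 1.42, Ccl8 from −1.30 to 0.27, Fcgr2b from −0.31 to 0.36 and Fcgr4 from −0.20 to 0.068. Ptprc was at 0.15 without CD45+ library 1, 0.038 without sorted library 2, 0.086 with the S100 limit of 2%, 0.031 without the highest Scrublet scores, 0.019 without the shared barcodes and 0.055 at 8000 UMIs. Itgam was at −0.037 without the filter, −0.071 without CD45+ library 1, −0.087 without sorted library 2 and −0.15 thinned. Stab1 was at −0.018 without the filter, −0.11 without sorted library 2, −0.16 at a C1q and Apoe share of 1%, −0.13 thinned, −0.27 at equal weight and −0.045 without the shared barcodes. Folr2 was at −0.018 without sorted library 2, Ccl8 at 0.27 without CD45+ library 1, Plac8 at −0.17 at a C1q and Apoe share of 1%, and Ly6c2 at 0.52 at equal weight. Fcgr2b was at 0.36 without CD45+ library 2, 0.19 at equal weight, 0.024 without the cells richer in neutrophil markers and 0.012 at 8000 UMIs. Fcgr4 was at 0.068 without CD45+ library 1, 0.0050 without sorted library 1 and 0.061 at equal weight. Fcer1g was at 0.020 without sorted library 1, 0.12 thinned and 0.028 at equal weight. Trim21 was at −0.023 and Adgre1 at −0.036 when thinned. The shared-barcode, neutrophil-richer, 8000-UMI and 20-UMI alternatives were chosen after seeing the data.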
